A study of Mus musculus with 2 samples.

Results

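The strongest CTCF sites of the embryonic mouse lung genome were the optimal peaks on chromosomes 1 to 19 and X with a peak signal of 350 or more. There were 1301 of them among 54943 optimal sites, or 2.37%. They were chosen by their signal, so the signal values below describe how the sites were selected and support nothing further. Binding was measured by ChIP-seq, the sequencing of DNA precipitated with an antibody to CTCF, in lungs of B6NCrl embryos at day 14.5. The tissue was a pulverised pool of lungs from embryos of both sexes. The study has 1 group, with 2 samples labelled biological replicates 1 and 2, and no treatment, mutant or second stage. Both samples are recorded under 1 biosample and 1 donor, and the spread between them may therefore be technical alone. Peak lists hold no read counts, so the depth of each sample is unknown, and whole lung cannot show which cell types a site is bound in.

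CTCF is a DNA-binding protein with a run of zinc fingers, and it reads a long, conserved motif of which the inner letters are bound by the central fingers. It marks insulators and the anchors of chromatin loops, where the cohesin ring is stopped, and loop anchors tend to carry motifs that point towards each other. Fingers near one end of the protein are known to contact further letters upstream of the motif, and methylation of a CpG inside the motif can hinder binding.

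The sequences under the strongest summits carried the known CTCF word, and the top sites often carried it more than once. The matrix used to find it was learned only from weaker sites and gave the 20-base consensus GCCACCAGGGGGCACTATAG. Of the 10 strongest sites, 8 held 2 or more non-overlapping matches within 100 bp of the summit. The 4 strongest of these are shown because they make the doubled motif visible. They are written 5′ to 3′ on the forward strand of mm10, with both matches in capitals.
Fam129b intron, chr2:32912589-32912651: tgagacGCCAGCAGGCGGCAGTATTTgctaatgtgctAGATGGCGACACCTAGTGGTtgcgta
Col18a1 intron, chr10:77130728-77130793: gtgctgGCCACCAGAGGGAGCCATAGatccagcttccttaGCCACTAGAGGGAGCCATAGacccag
Pink1 intron, chr4:138319679-138319742: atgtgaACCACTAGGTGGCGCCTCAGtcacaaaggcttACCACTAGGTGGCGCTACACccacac
Near Crybb3, chr5:113099703-113099801: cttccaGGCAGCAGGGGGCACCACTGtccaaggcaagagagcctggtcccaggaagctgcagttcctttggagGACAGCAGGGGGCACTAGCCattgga

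In the Fam129b intron the matches lie on opposite strands and face each other, with starts 31 bases apart. In the other 3 stretches both matches lie on the forward strand, with starts 34, 32 and 67 bases apart. The other 2 of the 10 strongest sites each held a single match. They are shown in the direction of the motif, the first on the reverse strand and the second on the forward strand, with the motif in capitals.
Upstream of Rbm19, chr5:120102919-120102964: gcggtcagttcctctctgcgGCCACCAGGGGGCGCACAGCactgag
Beyond Glrx3, chr7:137478452-137478497: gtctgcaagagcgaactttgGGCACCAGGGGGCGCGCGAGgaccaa

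Signals of the strongest sites ran from 350.02 to 641, with a median of 383 and quartiles of 364 and 412. The median of the remaining sites was 59.998. There were 851 sites from 350 to 400, 303 from 400 to 450 and 147 at 450 or more, of which 47 were at 500 or more. The 3 weakest sites inside the threshold, near Tanc2, Gsdmc and Cacna1a, had signals of 350.02, 350.08 and 350.08. The first 3 outside it, near Mpp7, Bcas1 and Ptger1, had signals of 349.996, 349.96 and 349.94, so the threshold cuts a continuous range. To set the strongest sites against sites of a nearer kind, the 13010 next strongest sites, with signals down to 147, are given beside all 53642 remaining sites.

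The replicates placed these sites near the top of their own lists. Replicate 1 had a summit within 100 bp of 1300 of the 1301 sites, with a median signal of 210 and a range of 172 to 344. Replicate 2 had one for all 1301, with a median of 175 and a range of 137 to 300. These signals are unscaled, and the ratio of replicate 1 to replicate 2 had a median of 1.20, with values from 0.929 to 1.597. Among the strongest 1301 peaks of its own list, replicate 1 held 1157 of the sites and replicate 2 held 1137, while 994 (76.4%) were in both and 1 was in neither. The lowest ranks were 2510 of 300000 in replicate 1, for an intronic site 94213 bp from the start of Frmd4b, and 3033 in replicate 2, for a site near Abhd11. All 1301 sites were also in the conservative list, which held 87.2% of the remaining sites.

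The 1 site without a summit match lay 11683 bp from Gapt, at chr13:110368586-110369042, and was 457 bp wide. Replicate 1 listed a peak over its left part, with a signal of 241 and a summit 146 bp from the pooled one. Replicate 2 listed a peak over its right part, with a signal of 203 and a summit 3 bp from the pooled one. The pooled signal of 445 was called over both.

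The site upstream of Rbm19, an RNA-binding protein of ribosome assembly, ranked first in both replicates, with signals of 344 in replicate 1 and 300 in replicate 2. The Fam129b intron site ranked second in both, with 341 and 284. The site in an intron of Col18a1, which encodes a basement membrane collagen, had 308 and 263. The site in an intron of Pink1, a mitochondrial kinase, had 311 and 258. The other 6, nearest to Glrx3, Crybb3, Slc41a3, Srgap1, Fnbp1l and Epm2aip1, had 291 to 305 in replicate 1 and 259 to 271 in replicate 2. Distances from these 10 summits to the nearest protein-coding transcription start site (TSS) ran from 4708 bp for Srgap1 to 132867 bp for Slc41a3, so none was at a protein-coding promoter.

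A motif match within 50 bp of the summit was counted on chromosomes with an even number and X, none of which was used to learn the matrix. It was found at 478 of 591 strongest sites, or 80.9% (95% Wilson interval 77.5% to 83.8%), against a background of 57.9% of all optimal sites. The next strongest sites had 77.3% and all remaining sites 57.3%. The difference was 3.60 percentage points from the next strongest (Newcombe interval 0.0693 to 6.76) and 23.5 points from all remaining sites (20.1 to 26.6). Across all chromosomes 1077 of the 1301 strongest sites (82.8%) had a match. With a stricter threshold that 0.1% of shifted windows pass, the shares were 29.9% for the strongest and 13.6% for all remaining sites. With a matrix learned from soft-masked sites too, the order turned round, with 12.4% and 20.1%. These intervals, like all below, cover counting error only, and neighbouring sites are not independent of each other.

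By step of signal, the motif share of the strongest sites was counted over all chromosomes. It was 83.7% at 450 or more, 81.2% from 400 to 450 and 83.2% from 350 to 400, with overlapping intervals. The score of the matches, in bits over the base composition, overlapped widely. On even-numbered chromosomes and X its median was 18.11 for the strongest sites, against 17.62 for the next strongest and 17.26 for all remaining sites with a match. The quartiles there were 15.8 and 20.2 bits for the strongest sites, against 15.4 and 19.005 bits for all remaining sites. Over all chromosomes the medians were 17.94, 17.62 and 17.35 in the same order. By step of signal they were 17.78 at 450 or more, 17.93 from 400 to 450 and 17.95 from 350 to 400. Matches sat close to the summit: the median distance from motif centre to summit was 4.5 bp, against 6.5 bp for all remaining sites.

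The strongest sites more often held several matches. Of the 1301, 109 held 2 or more non-overlapping matches within 100 bp, or 8.38% (6.99% to 10.01%), against a background of 0.823% of all optimal sites. The share was 1.15% in the next strongest sites and 0.639% in all remaining sites, and the differences were 7.23 points (5.83 to 8.86) and 7.74 points (6.35 to 9.37). As a description within the sites chosen by signal, it was 31.3% (24.4% to 39.2%) at signals of 450 or more, 9.24% from 400 to 450 and 4.11% from 350 to 400. A signal threshold of 300 gave 4.62% in place of 8.38%, and 400 gave 16.9%. With the stricter motif threshold the shares were 0.461% for the strongest and 0.0242% for all remaining sites. Both motif thresholds were set on windows of 50 bp on either side, and the 100 bp windows hold more places for a match. Within 50 bp and at the main threshold, the shares were 4.84% for the strongest, 0.469% for the next strongest and 0.278% for all remaining sites.

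Of the 107 strongest sites with exactly 2 matches, 78 had both on the same strand, 13 had them facing each other and 16 facing away. Their starts lay a median of 56 bases apart, with quartiles of 46 and 69.5. Only 8 of the 109 lay at a promoter and 5 had a soft-masked summit, and 2 held 3 or more matches, 1 of them 5. No pair of optimal summits was closer than 199 bp, so motifs this near to each other lie under 1 summit and share 1 signal value. How far that merging enters the signal was not tested.

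**Figure D1:**
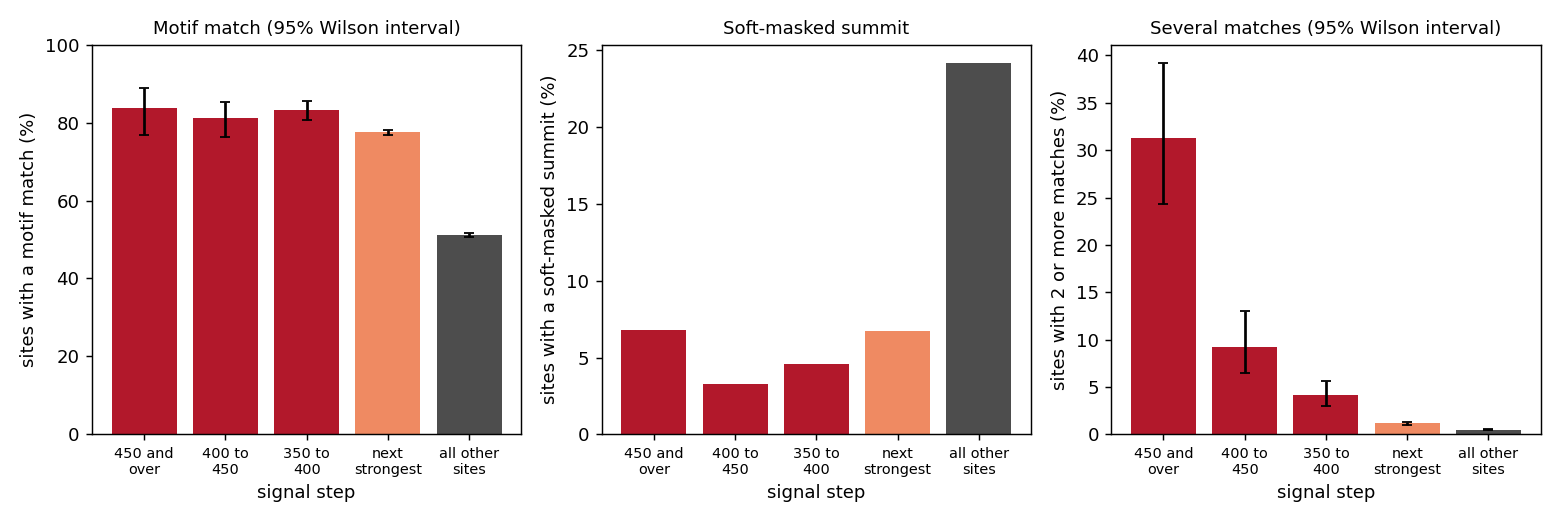
Share of sites with a motif match within 50 bp of the summit (left), with a soft-masked summit (middle) and with 2 or more matches within 100 bp (right), in percent. All panels cover all chromosomes, including the odd-numbered autosomes on which the matrix was learned. The strongest sites are split into 3 steps of signal (red) and stand left of the next strongest (orange) and all other sites (grey), with 95% Wilson intervals in the left and right panels; the share with several matches is 31.3%, 9.24%, 4.11%, 1.15% and 0.475% from left to right.

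Letters outside the motif differed as well. Positions are counted from 1 at the first base of the motif in its own direction, and from -1 at the base before it. The 1077 matched strongest sites were set against 22077 matched remaining sites without a soft-masked summit. At position -9, a C stood in 57.7% of the strongest sites, against 41.7% of the remaining ones, a difference of 15.9 points (12.9 to 18.9). At position -15, a G stood in 49.0%, against 35.5%, a difference of 13.5 points (10.5 to 16.6), and at position -14 a C stood in 45.4%, against 31.4%. A G at position -1 stood in 51.3%, against 37.9%, and a C at position 23, past the end of the motif, in 56.0%, against 42.4%. Differences went on far from the motif. For the commonest base of the strongest sites they ran from 0.168 to 8.96 points over positions -40 to -21, and from 0.757 to 9.78 points over positions 31 to 60. That base was C or G at 49 of these 50 positions, and the interval lay above 0 at 43. Taking the commonest base of the strongest sites at each position itself favours positive differences. The next strongest sites lay between at positions -9 and -15, with 45.6% and 39.1%.

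The stretch before the motif was also read as a fixed word. Between positions -40 and -5, the run of 7 positions with most information was found in remaining sites of odd-numbered autosomes. Its 4 best kept letters spell ANTNCC at positions -13 to -8, in motif direction and at that place only. On chromosomes with an even number and X, 50 of 450 matched strongest sites without a soft-masked summit held them, or 11.1% (8.53% to 14.4%). The share was 6.04% in the next strongest and 5.69% in all remaining sites. The difference from the remaining sites was 5.42 points (2.80 to 8.69). With soft-masked summits included the remaining sites stood at 13.1%, above the 11.3% of the strongest sites, so this comparison turns round with repeat sequence.

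**Figure D2:**
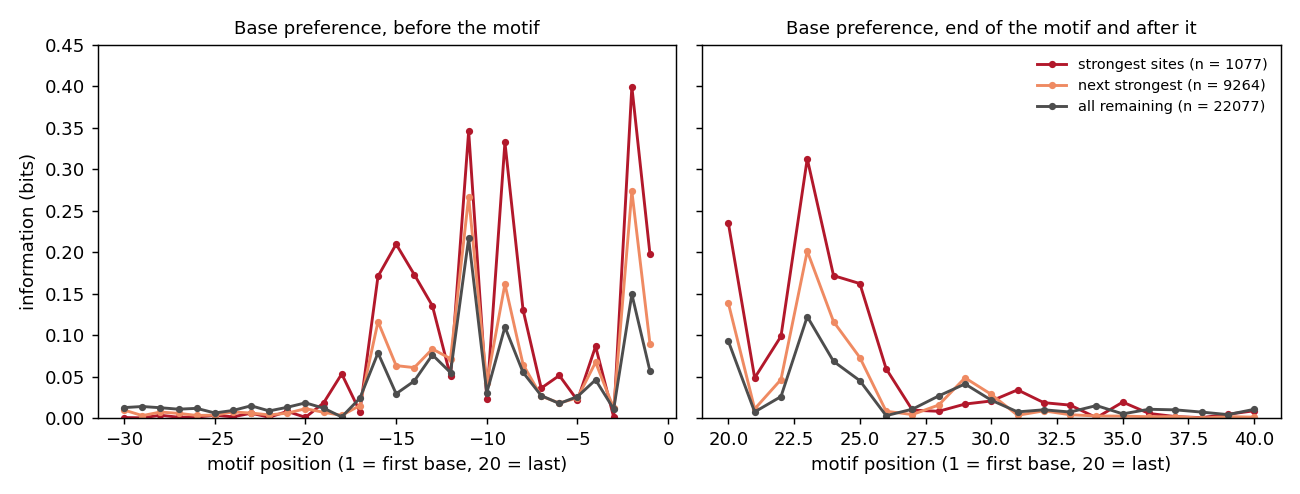
Information in bits at each position before the motif (left) and from its last base onward (right), for the strongest sites (red, n = 1077), the next strongest (orange, n = 9264) and all remaining sites (grey, n = 22077), the last 2 without soft-masked summits. The red line lies above the grey one at position -9 (0.332 bits, against 0.110 bits for remaining sites) and at position 23 (0.313 bits, against 0.122 bits).

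Inside the motif the strongest sites used more CpG. The matrix places its most frequent CpG at positions 13 and 14. It was present in 194 of 478 matched strongest sites, or 40.6% (36.3% to 45.0%), against 35.7% of the next strongest and 27.8% of all remaining matched sites. The differences were 4.85 points (0.322 to 9.52) and 12.8 points (8.42 to 17.3). Without soft-masked summits the share was 41.8% in the strongest sites and 29.7% in the remaining ones. The sequence around the strongest summits was richer in G and C too: the median GC content within 150 bp was 53.8%, against 49.2% in the next strongest and 48.2% in all remaining sites. The part of that composition in the letter differences above was not tested.

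The 13 inner letters from position 2 to 14 show which words were used. CCACCAGGGGGCA was the commonest in the strongest sites, in 42 of the 1077, or 3.90%. It stood in 2.19% of the next strongest and 1.07% of all remaining matched sites. CCACCAGGTGGCG followed the same pattern, with 29 sites or 2.69%, against 1.08% and 0.437%. The commonest word of the remaining sites was CCAGAAGAGGGCA, in 3596 of them or 11.6%, and in 2.19% of the next strongest. Of the 1077 strongest sites 0 carried it, which allows a share of up to 0.279%. This word goes with repeat sequence: its inner letters CAGAAGAGG were held by 6722 remaining sites, of which 5839 were soft-masked. The contrast therefore overlaps with the soft-masked shares given below. As whole 20-base motifs the strongest sites were nearly all distinct, with 1063 sequences in 1077 sites. The motif shared most often, GCCACCAGGTGGCAGTGTTG, lay under 3 of them, nearest to P4ha1, Lmx1b and Etv4.

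Soft-masked sequence, which the reference writes in lower case because it is annotated as repeat, was rare under the strongest summits. It held 59 of them, or 4.53% (3.53% to 5.81%), against a background of 19.6% of all optimal sites. The share was 6.70% in the next strongest and 19.9% in all remaining sites, so the differences were -2.17 points (-3.26 to -0.830) and -15.4 points (-16.4 to -14.1). Among sites without a soft-masked summit alone, the motif share was 80.4% in the strongest and 51.6% in the remaining sites, a difference of 28.7 points (25.2 to 31.9).

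There were 224 strongest sites without a match at the threshold of 13.3 bits. Their best scores had a median of 11.1 bits, 139 of them were within 3 bits of the threshold, and 19 had a match within 150 bp of the summit. A matrix learned from strongest sites on odd-numbered autosomes found a match at 63 of the 113 that lay on even-numbered chromosomes and X. The 5 with the highest signal lay near Gbx1, Rfx7, Hif1an, Lrrc74a and Dnah17, with signals of 514 to 536, and their ranks were 22 to 54 in replicate 1 and 22 to 38 in replicate 2. The site 3045 bp upstream of Gbx1, a homeobox gene, had 290 in replicate 1 and 245 in replicate 2. The site 1818 bp upstream of Rfx7, a winged-helix transcription factor gene, had 281 and 243. Promoters held 64 of the 224 sites without a match (28.6%), against 122 of the 1077 with one (11.3%).

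By location, fewer of the strongest sites lay in introns, and more between genes, than among all remaining sites. A promoter here is the 1 kb on either side of the TSS of any annotated gene. Between genes lay 533 sites, or 41.0% (38.3% to 43.7%), against a background of 35.2% of all optimal sites. Introns held 483, or 37.1% (34.5% to 39.8%), against a background of 43.1%. Set against all remaining sites these were differences of 5.91 points (3.24 to 8.64) and -6.09 points (-8.70 to -3.39). Against the next strongest sites the intergenic difference was 0.638 points, with an interval from -2.14 to 3.46, and the intron difference was -2.91 points (-5.62 to -0.117).

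The promoter share of the strongest sites, 186 sites or 14.3% (12.5% to 16.3%), was close to the background of 14.7%. The difference from all remaining sites was -0.399 points, with an interval from -2.22 to 1.63, and it was 1.99 points (0.104 to 4.07) above the next strongest. The motif share was lower at promoters than elsewhere: on even-numbered chromosomes and X it was 63.9% for 83 strongest promoter sites, against 55.3% for the next strongest and 28.0% for all remaining promoter sites. Elsewhere it was 83.7%, 80.2% and 62.1% in the same order. Exons held few sites: 23 in coding exons, 4 in 5′ UTRs, 28 in 3′ UTRs and 44 in non-coding exons. The non-coding exon share was 3.38%, against 2.32% of the next strongest and 2.20% of all remaining sites. The differences were 1.06 points (0.165 to 2.21) and 1.18 points (0.316 to 2.31). Coding exons had 1.77%, against 2.53% of all remaining sites, 5′ UTRs 0.307%, against 0.516%, and 3′ UTRs 2.15%, against 1.79%. The intervals of these differences included 0.

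**Figure D3:**
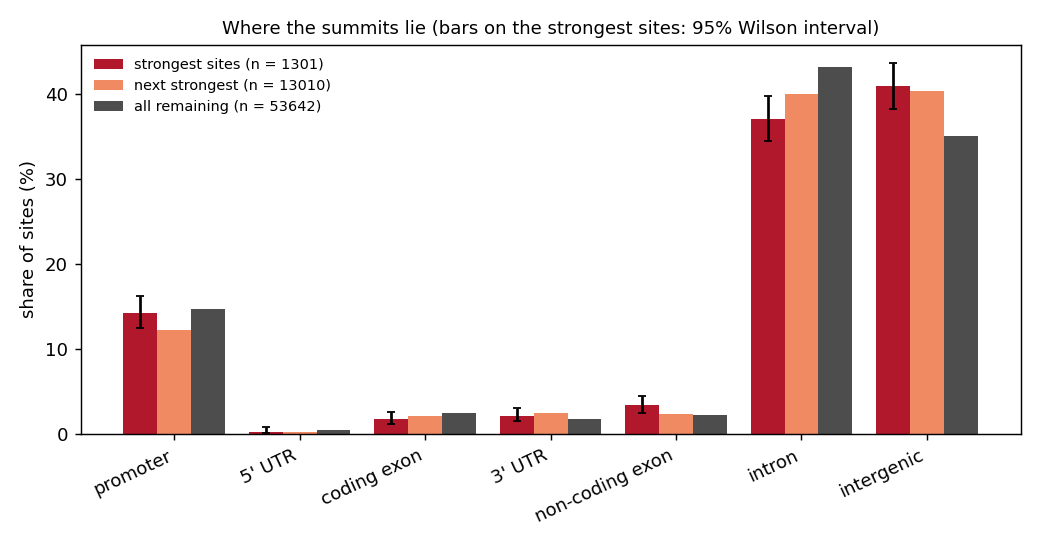
Share of summits in each class of location, in percent, for the strongest sites (red, n = 1301, with 95% Wilson intervals), the next strongest (orange, n = 13010) and all remaining sites (grey, n = 53642). The strongest sites have 37.1% in introns and 41.0% between genes, against 43.2% and 35.1% for all remaining sites.

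Few of the strongest sites lay far from a protein-coding gene start. The median distance to the nearest protein-coding TSS was 17926 bp, with quartiles of 6205 and 42848 bp, against 21132 bp for the next strongest and 23709 bp for all remaining sites. The band from 10 to 100 kb held 58.5% of the strongest sites, 53.8% of the next strongest and 49.3% of the remaining ones. The difference from the remaining sites was 9.22 points (6.49 to 11.9). Beyond 100 kb lay 104 strongest sites, or 7.99%, against 14.4% of the next strongest and 18.5% of the remaining ones. Within 1 kb the shares were 9.84%, 8.81% and 11.1% in the same order. The interval of the difference from the remaining sites there was -2.77 to 0.514 points.

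The 128 strongest sites within 1 kb of a protein-coding TSS lay mostly before it. The summit was upstream at 100 of them, or 78.1% (70.2% to 84.4%), against 71.2% of 1146 next strongest and 53.0% of 5945 remaining sites there. The difference from the remaining sites was 25.2 points (17.1 to 31.6). The median distance to the TSS was 126.5 bp, against 261 bp for the remaining sites. Of the 128, 71 had a motif match.

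Of the sites within 1 kb of a protein-coding TSS, the one with the highest signal lay 91 bp upstream of Med4, a subunit of the Mediator complex of transcription, with signals of 311 in replicate 1 and 239 in replicate 2. At Comtd1 the summit was 45 bp upstream, with 283 and 258. At Ccdc110 it was 303 bp downstream, with 276 and 237. Gins4, whose product belongs to the replicative helicase, had its summit 213 bp upstream, with 270 and 229. In all 4 the signal was higher in replicate 1, as in the median ratio over all strongest sites.

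Motifs under 4 of these summits are shown in motif direction, because they differ in how closely they follow the consensus. Matches with lower scores, such as that at Sh3gl1 with 13.4 bits, are not shown.
Med4, chr14:73509896-73509915: CCCTGTAGATGGCGCTAGAA
Ccdc110, chr8:45934944-45934963: GCCACCAGAGGGCGCGCTAT
Adprhl2, chr4:126321741-126321760: GCCACAAGGGGGCGCTGTGG
Gaa, chr11:119267935-119267954: GCCACTAGGGGGCGCAGCGA

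The Adprhl2 motif scored 21.1 bits and that of Med4 16.4 bits, at sites with signals of 461 and 547. Adprhl2 encodes an enzyme that removes ADP-ribose, and Gaa encodes lysosomal acid alpha-glucosidase. Of the 20 sites with the highest signal within 1 kb of a protein-coding TSS, 12 had a match. The Crybb3 site shown above, at a signal of 560, is not among them, since its promoter, 769 bp away, is that of Gm43246, which is not annotated as protein-coding. The 8 without one lay at Rrp1, Rab2b, Cirbp, Mtnr1a, Vps18, Cdk9, Trabd2b and Abca14, and their best scores ran from 6.95 bits at Vps18 to 13.26 bits at Cirbp, just under the threshold. Cdk9 encodes the kinase that releases paused RNA polymerase, and its site had 257 in replicate 1 and 199 in replicate 2. Matched sites also lay at Top1mt, Piezo1, which encodes a mechanically gated ion channel, Srrm3, Wrap53, Chd9 and Sh3gl1, with signals of 433 to 500.5.

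Genes of 10 lists were looked up around the strongest sites. Over all 21701 protein-coding genes with a unique symbol, 549 had a TSS within 10 kb of a strongest site, a background of 2.53%, and 57.3% had one within 10 kb of any optimal site. Cytosolic ribosomal protein genes had 11 of 78, or 14.1% (8.06% to 23.5%), and 89.7% were near any optimal site. Rps19 had a site 6263 bp downstream of its TSS, with signals of 241 in replicate 1 and 205 in replicate 2. Rplp0 had 2 strongest sites within 10 kb, the higher 3048 bp upstream with 229 and 202, and Rps21 had one 5919 bp upstream with 214 and 183. These 3 lay outside promoters.

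Growth factor genes of lung branching had 4 of 50 near a strongest site, with an interval of the share from 3.15% to 18.8%. The site 522 bp upstream of Vegfa, which drives vessel growth, had 222 in replicate 1 and 183 in replicate 2. The site 1310 bp upstream of Nog, an antagonist of bone morphogenetic proteins, had 199 and 183, and the site 1166 bp upstream of Fgf1 had 206 and 164. Cell cycle genes had 3 of 38, or 7.89%. These were the D-type cyclin gene Ccnd2, with 237 and 198, the cell cycle inhibitor Cdkn1a, with 235 and 182, and Ccnd1, another D-type cyclin gene, with 224 and 155, each with its site 2277 to 4656 bp downstream of the TSS.

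The 3 Hox genes of 39 within reach, Hoxa3, Hoxa7 and Hoxa9, all stood near 1 and the same site, which had 214 in replicate 1 and 178 in replicate 2. It lay 43 bp downstream of the Hoxa7 TSS, so this count rests on 1 site. Imprinted genes had 2 of 45, H13 and Cdkn1c, with sites 44 bp and 5453 bp upstream. Lung epithelial genes had 2 of 34: Id2, with 228 and 170, and Scgb1a1, the secretory protein of club cells, with 200 and 149. Housekeeping genes had 1 of 32, Eno1. No gene was near a strongest site among 30 of lung mesenchyme and mesothelium, 17 of CTCF and cohesin or 32 markers of blood, heart, liver and neurons, with upper bounds of 11.4%, 18.4% and 10.7%. Over lists of this size only large departures from 2.53% could be seen.

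Chromosomes differed in the share of their optimal sites that were this strong. It ran from 1.42% on chromosome 3 (1.03% to 1.94%) to 3.44% on chromosome 11 (2.92% to 4.04%) among autosomes, and was 0.157% on X (0.0430% to 0.570%), where 2 of 1275 sites qualified. Lower signals on X ran through the upper part of the range: the 90th percentile was 147 on X and 258 on autosomes, and the medians were 55.8 and 62.5. The motif share on X was 63.6%, against 58.1% on autosomes. The embryos were of both sexes, and the part of X copy number in these values was not tested. The 2 X sites lay 141159 bp from the TSS of Zxdb, with 251 in replicate 1 and 179 in replicate 2, and 72754 bp from that of Ddx3x, with 205 and 158.

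**Figure D4:**
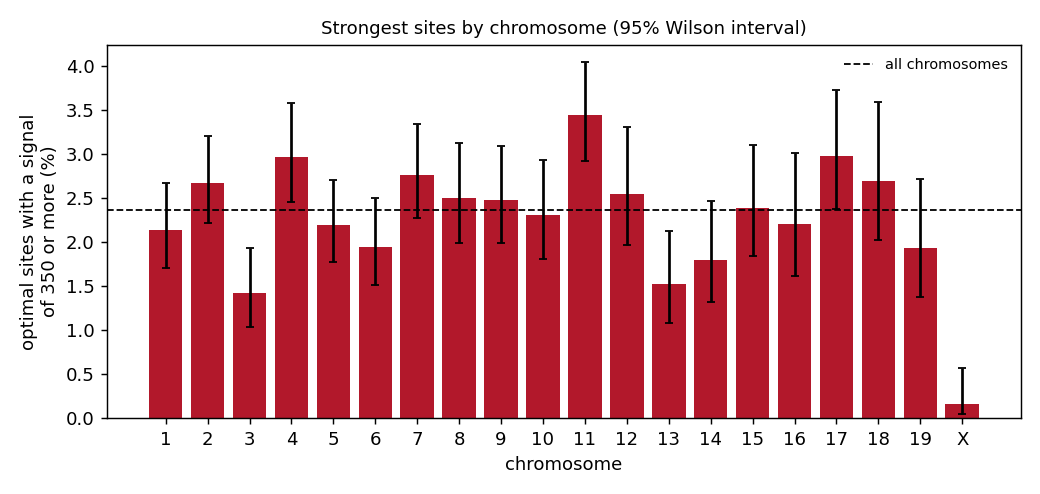
Share of the optimal sites of each chromosome with a signal of 350 or more, in percent, with 95% Wilson intervals; the dashed line is the 2.37% over all chromosomes. Chromosome 11 is highest at 3.44% and X lowest at 0.157%.

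Strongest sites lay closer to other CTCF sites than the rest did. The median distance to the nearest other optimal summit was 4632 bp (quartiles 1931 and 10991 bp), against 6237 bp for the next strongest and 7393 bp for all remaining sites. Another optimal site lay within 10 kb of 72.6% of them, against 62.9% of the next strongest and 58.1% of all remaining sites. The difference from all remaining sites was 14.5 points (11.9 to 16.9). At 1 kb the shares were 10.1% for the strongest and 10.5% for all remaining sites, with an interval of the difference from -1.96 to 1.36 points. Within 100 kb a strongest site had a median of 10 other optimal sites and 3 protein-coding TSSs. The medians were 8 and 3 for the next strongest and 7 and 2 for all remaining sites, so the TSS count was that of the next strongest. The neighbour was seldom as strong: it was itself one of the strongest at 58 sites (4.46%). That is above the 2.37% that the strongest make up of all optimal sites, but the same share for the neighbours of weaker sites is not given here. The median signal of the neighbour was 82.2, against 63.5 for the neighbours of all remaining sites.

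**Figure D5:**
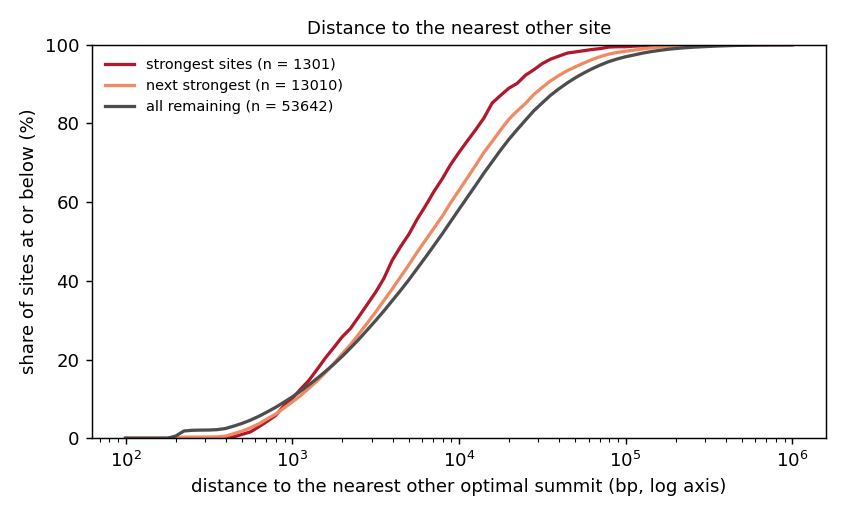
Cumulative share of sites, in percent, by distance to the nearest other optimal summit in bp on a log axis, for the strongest sites (red), the next strongest (orange) and all remaining sites (grey). At 10 kb the red curve stands at 72.6% and the grey one at 58.1%, with medians of 4632, 6237 and 7393 bp in that order.

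From one strongest site to the nearest other strongest site the median distance was 212573 bp, with quartiles of 62679 and 560413 bp. Within 100 kb of another lay 449 of them (34.5%), within 10 kb 88, and within 1 kb 8. The closest pair lay 604 bp apart at the promoter of Rhof, a small GTPase gene, at summits 123132985 and 123133589 of chromosome 5, with signals of 364 and 393. Its motifs faced away from each other. Pairs 823 to 1002 bp apart followed near Tex35, Scarb1, Mdfi and Gnai2, and in 3 of these 4 a site without a match was included.

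The most isolated strongest site, 167639 bp from Samd12, had its nearest optimal neighbour 208042 bp away, with signals of 199 in replicate 1 and 190 in replicate 2. The next 4 were nearest to Tcerg1l, Mrc1, Pon1 and Zxdb, with neighbours 124974 to 164111 bp away, and those near Tcerg1l and Pon1 had no motif match. In all, 7 strongest sites (0.538%) had no optimal site within 100 kb, against 3.09% of all remaining sites. At the other end, the 1 Mb window with most strongest sites was chr2:167000001-168000000, with 8 among 73 optimal sites. The genes nearest to them, Znfx1, Ptgis, Ube2v1, Cebpb and Ptpn1, were picked after their values were seen.

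Motif direction was compared between strongest sites that follow each other within 2 Mb. Of 795 such pairs, 208 pointed towards each other, or 26.2% (23.2% to 29.3%), 195 pointed away and 392 pointed the same way. Over all optimal sites with a match the convergent share was 24.3% of 31894 pairs, which lay at shorter distances. A pair of strongest sites can have weaker matched sites between its members, and a pair of all sites cannot. The compared pairs are therefore of unlike kind at every distance below, and the part of this in the shares was not tested. At 20 to 500 kb it was 30.6% of 435 pairs (26.4% to 35.1%) of strongest sites, against 27.1% of 18558 pairs of all sites. At longer distances the order turned round: at 500 to 2000 kb it was 23.7% of 304 pairs (19.3% to 28.8%), against 37.6% of 667 pairs of all sites (34.0% to 41.4%). At 100 to 1000 kb it was 28.9% of 488 pairs, against 32.6% of 5877. Under 20 kb only 3 of 56 pairs of strongest sites were convergent, or 5.36% (1.84% to 14.6%), and 27 were divergent, against 19.5% convergent among 12669 pairs of all sites. Of 473 strongest sites with a match inside exactly 1 protein-coding gene, 220 had the motif on the strand of the gene, or 46.5% (42.1% to 51.0%).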

How the data were processed

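The peak signal and summit offset of each site were used as deposited by the authors in narrowPeak lists on mm10. Per the deposited README, the optimal and conservative lists derive from a pooled list and both replicate lists. The sources used here name no aligner or peak caller and no threshold of the irreproducible discovery rate. Signals are not scaled between lists. Of 10 optimal peaks on other sequences, 1 had a signal of at least 350; all 10 were left out.

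Sequence came from GRCm38 patch 6 and genes from GENCODE M21, with 53843 genes, 21755 of them protein-coding and 1 TSS each. The 20-base matrix was grown in 15 rounds from a 9-base seed on 22850 remaining sites of odd-numbered autosomes without a soft-masked summit. That restriction was added after the data were seen. A match exceeded the score passed by 1% of windows shifted by 1 kb. Several matches had to be non-overlapping.

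The sites, gene lists and comparisons were chosen with earlier results of these data known. With 1 group there is no sample test. Shares carry 95% Wilson intervals, and differences, strongest sites minus the others, carry Newcombe intervals. Named genes were those nearest the 10 strongest sites, the 20 strongest sites within 1 kb of a protein-coding TSS, up to 3 per list, and the closest, most isolated and strongest unmatched sites. The code was tested on simulated sequences. Alternatives changed the threshold, list, replicate, comparison set, promoter window, TSS set, motif settings and pair distance. Scripts ran under Python 3.11.15 with scipy 1.17.1, numpy 2.4.6, pandas 2.3.3 and matplotlib 3.10.9.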

Additional observations from a re-analysis of the deposited data

How the results depend on the processing

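Under 17 alternatives, 76 of 91 recomputed values stayed within the 95% interval of the value reported, and 82 of 87 differences from the comparison sites kept their sign. For the convergent share, the comparison sites include the strongest sites themselves. Some of these could not change. Leaving out sites close to a stronger summit removed none and repeats the main values. Taking the next strongest as the only comparison keeps the same strongest sites, so their own location, masking and distance values are fixed. Both counts therefore overstate how far the results were tried. The share of sites with a motif match was 85.8% with the next strongest sites as the only comparison and the matrix relearned from them. With the main matrix it stays at 80.9% there. The share was 55.2% with a 100 bp window and its own threshold, and 29.9% when 0.1% of shifted windows pass. A matrix learned from the strongest sites gave 91.4%, and a matrix learned from soft-masked sites too gave 12.4%. With that last matrix, added after the data were seen, the difference reversed to -7.75 points. Its commonest word is the one that 0 of the matched strongest sites carry in their motif. The share with 2 or more matches was 4.62% at a signal of 300, 16.9% at 400, and, as added alternatives, 0.461% with the 0.1% threshold and 11.3% with the matrix from the strongest sites; the remaining sites had 0.586%, 0.699%, 0.0242% and 1.14% there. The share of sites in the top of both replicates was 81.8% at 300 and 71.1% at 400. The promoter share was 34.7% in a 5 kb window and 9.84% with protein-coding TSSs only. Its small difference from the remaining sites turned to 1.54 points with 5 kb and 1.99 against the next strongest. It was -1.03 points with sites ranked by replicate 2 alone and 0.152 points with replicate 1 alone. The median TSS distance was 9002 bp with all genes. The convergent share was 30.6% at 20 to 500 kb, and its difference was -0.660 points against the next strongest. Where no construction shows it, the cause was not tested. With the same optimal sites ranked by replicate 2 alone or replicate 1 alone, the motif share was 82.3% or 80.5%. In both cases 8.15% held several matches. The list of sites still came from both replicates, so neither was left out of the site calls. No paired analysis was possible because there is 1 group. No optimal summits lay within 100 bp of each other, so leaving such sites out removed none. Unknown depth limits every signal.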
